A study of Mus musculus with 152 samples.

Results

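Livers of control-fed C57BL/6J mice, an inbred laboratory strain, were compared between 32 and 16 weeks of feeding with a purified control diet. The mice were 8 weeks old when the diets started and thus 40 weeks old in the week 32 group and 24 weeks old in the week 16 group, and time on the diet cannot be told apart from age. The comparison took 28 of the 152 listed samples, 16 from week 32 and 12 from week 16. Samples with 4 consecutive numbers differed by no more than the counting noise of parts of 1 library (chi-square per gene 2.04 to 2.11, against 6.16 or more between blocks within either control group), so each block was counted as 1 library. This left 7 of the 38 libraries of the study, 4 from week 32 and 3 from week 16. The same comparison in livers of mice given LIDPAD, a diet that induces non-alcoholic fatty liver disease, is set beside it (5 libraries at week 32 and 3 at week 16). Blocks of 1 LIDPAD group differed by 3.72 or more, except week 32 LIDPAD libraries 4 and 5, which differed by 2.65 and were kept as separate libraries. The labels do not say whether libraries came from separate animals, so p-values measure only the spread between libraries, which may be technical. They give neither the sex nor the hour of collection.

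The liver adapts its transcriptome to the time of day, to feeding and to inflammation. In the circadian clock, ARNTL pairs with CLOCK or NPAS2 and drives E-box genes such as the Per and Cry repressors, and the output factors DBP, TEF and HLF act through D-boxes in competition with the repressor NFIL3. Acute phase proteins are secreted by hepatocytes under cytokine control, heat shock proteins refold damaged proteins, and stearoyl-CoA desaturases make monounsaturated fatty acids for storage and export.

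Depth was 12.4 to 32.8 M (units of 1000000 reads) per week 32 library and 22.5 to 28.7 M per week 16 library. The Y-linked gene Ddx3y had 74.6, 76.5, 88.1 and 122 CPM in week 32 livers, against 82.8, 74.5 and 86.3 CPM in week 16 livers, and Xist stayed at or below 0.757 CPM (reads per 1000000 on a scale common to all libraries) in all 7 libraries. Mitochondrial ribosomal RNA took 18 to 23% of reads at week 32 and 20 to 21% at week 16. Week 32 library 3, the shallowest, stood apart on the second principal component (20.1% of variance). In it Lars2, Gm15564, CT010467.1 and Mir6236 took 3.60% of reads, against 0.0136 to 0.0771% in the other week 32 libraries and 0.0894 to 0.321% at week 16. Cyp4a14, a fatty acid hydroxylase gene, ran low in that library as well, with 179, 39.7, 2.50 and 133 CPM in week 32 livers, against 549.9, 270.3 and 327 CPM in week 16 livers. Week 32 library 4 had the largest share of its reads in column 1 of its 4 columns (26.1%). In the other 6 control libraries of the comparison the largest share was in column 3 (26.9 to 27.2%). For week 32 LIDPAD libraries 4 and 5 and all week 48 libraries it was in column 1 as well. Results without each library are given below where they differ.

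Of 13560 genes tested, 206 were called, which is 1.52% (limma, two-sided, adjusted p under 0.05). They comprised 112 that rose (0.826% of genes tested) and 94 that fell (0.693%) at week 32. The groups did not overlap for any of the 206, but that held for 2072 genes tested (15.3%). Of those called, 69 rose and 45 fell by more than 2-fold. The median log2 change of all genes was -0.03, and 46.0% of genes tested had a change above 0. The 2 tables were scaled apart by the authors. With the values as deposited the all-gene median was -0.16 and 102 genes rose against 404 that fell, and with each library set to a total of 1000000 it was -0.21 with 66 against 349. Changes below are therefore to be read against the median of all genes.

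The circadian clock list had the highest share of called members of any list followed here. Of 20 members, all tested, 4 rose and 7 fell (55.0%, against 1.52% of all genes). The 4 that rose included the activators Arntl, Npas2 and Clock, and the 7 that fell included the outputs Dbp and Tef and the repressors Per3, Ciart and Cry2. Members moved in both directions, with a list median of -0.88.

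Promoters of 3 called clock genes are shown because each carried a clock motif in its window from 250 bases before to 50 after the start (RefSeq, GRCm38.p6, minus strand, printed 5′ to 3′ along the gene, motif in capitals). Ciart, at chr3:95882179-95882478, held 3 E-boxes (CACGTG, its own reverse complement). Per3, at chr4:151044616-151044915, held 2 D-boxes (TTATGNAA, either strand). Nfil3, at chr13:52980990-52981289, held 1 REV-ERB/ROR element core (TAGGTCA, either strand). This element and the heat shock element used below were chosen after the data were seen.
Ciart: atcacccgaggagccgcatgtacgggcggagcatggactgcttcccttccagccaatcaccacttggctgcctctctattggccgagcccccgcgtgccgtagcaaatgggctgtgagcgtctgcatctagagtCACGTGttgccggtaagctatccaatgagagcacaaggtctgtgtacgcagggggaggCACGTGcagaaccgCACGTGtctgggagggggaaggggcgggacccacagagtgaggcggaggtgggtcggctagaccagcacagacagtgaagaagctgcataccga
Per3: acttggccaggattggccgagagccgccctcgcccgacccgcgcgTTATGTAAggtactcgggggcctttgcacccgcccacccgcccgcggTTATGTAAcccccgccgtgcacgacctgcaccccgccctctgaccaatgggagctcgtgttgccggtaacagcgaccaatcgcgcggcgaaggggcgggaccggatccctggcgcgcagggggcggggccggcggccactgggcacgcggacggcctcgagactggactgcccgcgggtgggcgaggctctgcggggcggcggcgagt
Nfil3: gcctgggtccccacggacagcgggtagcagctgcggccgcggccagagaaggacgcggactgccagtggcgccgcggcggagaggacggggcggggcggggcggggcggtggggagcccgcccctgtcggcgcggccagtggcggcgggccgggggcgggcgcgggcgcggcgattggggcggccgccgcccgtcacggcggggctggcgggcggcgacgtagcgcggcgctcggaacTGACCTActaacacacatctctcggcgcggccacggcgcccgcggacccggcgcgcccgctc
Of the 11 called clock genes, all with a window, 3 held an E-box (Ciart, Tef and Bhlhe41), 1 a D-box and 1 the REV-ERB/ROR core. Of all 32851 RefSeq windows, 7.15% held an E-box, 3.38% a D-box and 2.61% the REV-ERB/ROR core. No called clock gene held an interferon response element core (a pair of GAAA units with 2 bases between them, 3.44% of windows) in this window. A match is a description of letters and not a binding site.

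Among the activators, Arntl had 25.2, 22.7, 21.1 and 11.3 CPM in week 32 livers, against 8.43, 3.63 and 5.56 CPM in week 16 livers. It was 3.25-fold higher at week 32 (log2 change 1.70 ± 0.30 (SE), adjusted p = 0.0221), with library 4 the lowest of its group and above every week 16 library. Npas2 had 11.0, 6.07, 5.82 and 2.16 CPM in week 32 livers, against 0.653, 0.610 and 0.856 CPM in week 16 livers (log2 change 2.31 ± 0.40 (SE), adjusted p = 0.0211). Clock, the partner of Arntl, had 92.0, 99.6, 83.9 and 96.3 CPM in week 32 livers, against 65.3, 53.9 and 57.0 CPM in week 16 livers (log2 change 0.66 ± 0.12 (SE), adjusted p = 0.0221). Nfil3, the repressor at D-boxes, had 29.9, 30.7, 18.8 and 22.8 CPM in week 32 livers, against 12.4, 6.85 and 5.94 CPM in week 16 livers (log2 change 1.59 ± 0.25 (SE), adjusted p = 0.0151). In all 4 genes the lowest week 32 library lay above the highest week 16 library.

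Among outputs and repressors, Dbp (chromosome 7, 45705088 to 45710203, GRCm38) had 0.207, 0.199, 1.51 and 4.90 CPM in week 32 livers, against 26.8, 39.0 and 27.4 CPM in week 16 livers (log2 change -4.35 ± 0.60 (SE), adjusted p = 0.00891). Week 32 libraries 1 and 2 were the lowest and library 4 the highest of its group, still below all week 16 libraries, and without library 4 the log2 change was -4.96. Tef had 25.5, 22.7, 31.5 and 46.9 CPM in week 32 livers, against 103, 147 and 100 CPM in week 16 livers (log2 change -1.90 ± 0.23 (SE), adjusted p = 0.00473). Per3, a member of the Period family, had 1.45, 1.19, 2.25 and 6.83 CPM in week 32 livers, against 22.9, 36.9 and 26.8 CPM in week 16 livers (log2 change -3.34 ± 0.42 (SE), adjusted p = 0.00586). Cry2, a cryptochrome repressor, had 9.88, 8.32, 10.4 and 10.7 CPM in week 32 livers, against 20.5, 23.2 and 21.2 CPM in week 16 livers, a difference with little spread in either group (log2 change -1.10 ± 0.13 (SE), adjusted p = 0.00473). Ciart, an inhibitor of ARNTL and CLOCK, had 0.212, 0.197, 0.378 and 0.880 CPM in week 32 livers, against 2.54, 5.85 and 2.02 CPM in week 16 livers (log2 change -2.05 ± 0.36 (SE), adjusted p = 0.0224). Bhlhe41, an E-box repressor, was at 0 in week 32 library 3 and had 0.0959, 0.10, 0 and 0.452 CPM in week 32 livers, against 1.69, 3.14 and 1.79 CPM in week 16 livers (log2 change -2.04 ± 0.31 (SE), adjusted p = 0.0142). Usp2, a deubiquitinase with rhythmic expression, had a log2 change of -1.56 ± 0.30, adjusted p = 0.0302. Wee1, a cell cycle kinase known as a clock target in mouse liver and not on the list, had 2.72, 2.06, 0.723 and 3.39 CPM in week 32 livers, against 6.12, 15.6 and 8.15 CPM in week 16 livers (log2 change -1.96 ± 0.40 (SE), adjusted p = 0.0392).

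The remaining members were not called. The groups of Nr1d1, the gene of REV-ERB alpha, did not overlap, with 3.31, 12.3, 24.5 and 35.1 CPM in week 32 livers, against 61.9, 54.3 and 60.0 CPM in week 16 livers (log2 change -2.04, adjusted p = 0.117). Its paralog Nr1d2 had a log2 change of -1.40 (adjusted p = 0.0734) and Bhlhe40 one of -1.08 (adjusted p = 0.0529). Per1 and Cry1 had positive values of 0.64 and 0.80, and Per2, Hlf and Rora had values of -0.67, -0.58 and -0.11. Leaving out a week 32 library raised the adjusted p to 0.0623 for Arntl, 0.0587 for Npas2, 0.0600 for Clock, 0.0600 for Ciart, 0.0746 for Usp2 and 0.0831 for Wee1 without library 2, and 0.0546 for Usp2 without library 4. Leaving out a week 16 library raised the adjusted p to 0.0706 for Npas2, 0.0642 for Ciart, 0.0712 for Usp2 and 0.0638 for Wee1 without library 1, 0.0988 for Arntl, 0.0917 for Npas2, 0.132 for Clock, 0.0865 for Nfil3, 0.0502 for Dbp, 0.103 for Ciart, 0.0865 for Bhlhe41, 0.144 for Usp2 and 0.176 for Wee1 without library 2, and 0.102 for Arntl, 0.0788 for Npas2, 0.114 for Clock, 0.0765 for Nfil3, 0.0541 for Ciart, 0.0595 for Bhlhe41, 0.0770 for Usp2 and 0.130 for Wee1 without library 3. Per3, Cry2 and Tef were called whichever library was left out. With each library set to a total of 1000000 Clock was no longer called.

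**Figure D1:**
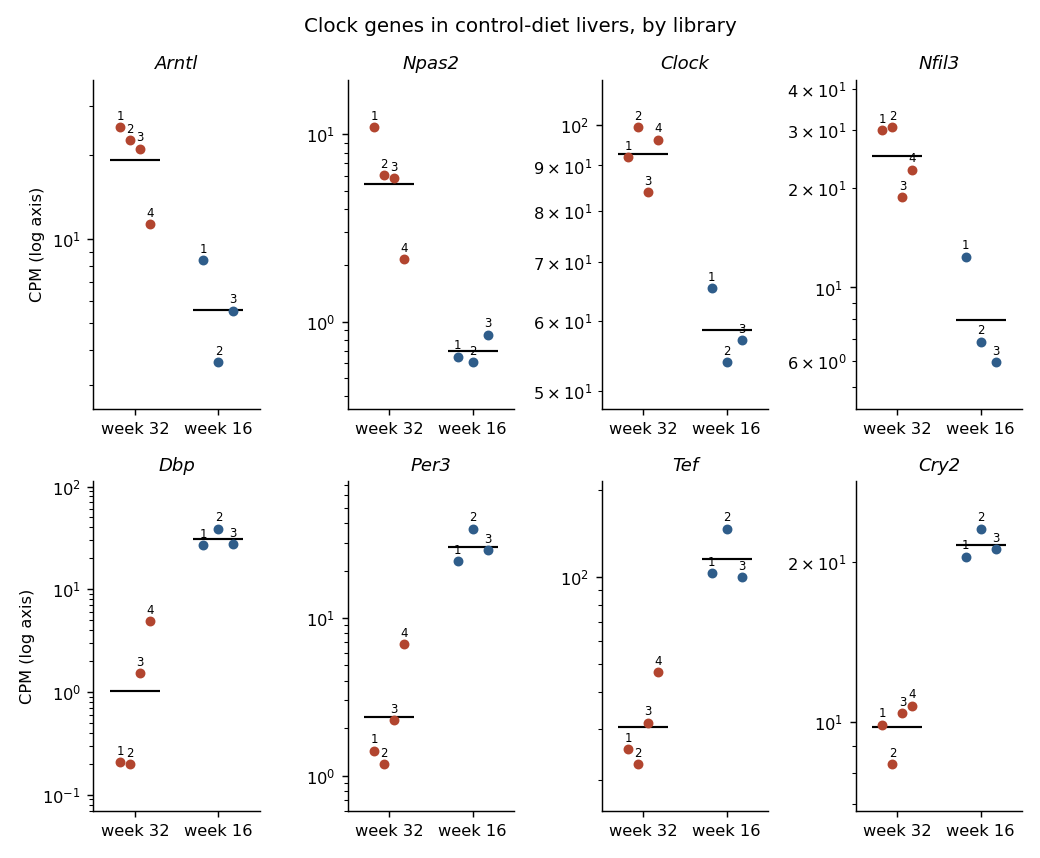
Level of 8 clock genes in each control-diet liver library, in CPM on a log axis, with week 32 libraries (red, numbered 1 to 4) left of week 16 libraries (blue, numbered 1 to 3). Bars are means taken on the log2(CPM + 0.5) scale. The groups do not overlap in any panel. Week 32 library 4 lies nearest to week 16 for Arntl, Npas2, Dbp, Per3, Tef and Cry2, and library 3 for Clock and Nfil3.

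The difference log2 Arntl minus log2 Dbp (both as CPM + 0.5) sets an activator against an output in 1 value per library. It was 5.19, 5.05, 3.42 and 1.13 in week 32 libraries 1 to 4, against -1.61, -3.26 and -2.21 in week 16 libraries 1 to 3. Means were 3.70 ± 1.89 (SD, n = 4) at week 32 and -2.36 ± 0.83 (SD, n = 3) at week 16, a difference of 6.05. In LIDPAD livers it was 2.67 ± 0.87 (SD, n = 5) at week 32 and -3.16 ± 0.29 (SD, n = 3) at week 16, a difference of 5.83. No test is given, since the groups of both genes were already apart in opposite directions. Hour of collection, duration and the table a library came from cannot be told apart here.

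Saa1, Saa2, Lcn2, Hp and Itih3 fell among the acute phase genes. Of 23 members 21 were tested, and 5 of them fell and none rose (23.8%, against 1.52% of all genes; list median -0.72). The serum amyloid A genes Saa1 and Saa2, whose products replace apolipoproteins on high-density lipoprotein in inflammation, fell most. Saa1 (chromosome 7, 46740497 to 46742980, GRCm38) had 5.30, 3.96, 19.9 and 9.49 CPM in week 32 livers, against 105, 1415 and 243 CPM in week 16 livers (log2 change -5.28 ± 0.75 (SE), adjusted p = 0.0113). Saa2 had 2.90, 1.64, 6.93 and 3.71 CPM in week 32 livers, against 34.4, 1416 and 109 CPM in week 16 livers (log2 change -5.50 ± 0.96 (SE), adjusted p = 0.0221). The genes are near copies, so how reads were split between them is uncertain. Lcn2, an iron-siderophore binding protein, had 0.943, 0.767, 1.35 and 2.73 CPM in week 32 livers, against 12.9, 204 and 28.3 CPM in week 16 livers (log2 change -4.56 ± 0.73 (SE), adjusted p = 0.0162). Week 16 library 2 was the highest for all 3 genes, and the lowest week 16 library was still above every week 32 library. Without week 16 library 2 the log2 change was -4.23 for Saa1, -4.0 for Saa2 and -3.43 for Lcn2, and without week 16 library 1 it was -6.10, -6.67 and -5.40 for the same genes.

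Hp, the haemoglobin-binding haptoglobin, had 972, 898, 862 and 1034 CPM in week 32 livers, against 2217, 3226 and 2322 CPM in week 16 livers and was 2.72-fold lower at week 32 (log2 change -1.44 ± 0.17 (SE), adjusted p = 0.00473). Itih3, a heavy chain of the inter-alpha-trypsin inhibitor, had 615, 568, 723 and 696 CPM in week 32 livers, against 1094, 1143 and 979 CPM in week 16 livers (log2 change -0.72 ± 0.14 (SE), adjusted p = 0.0352). Not called were Orm2 at -2.28 (adjusted p = 0.0699), Apcs at -1.14 (adjusted p = 0.0608) and Hpx at -1.08 (adjusted p = 0.0583), all with groups that did not overlap. The fibrinogen genes Fga, Fgb and Fgg had values of 0.18 to 0.32, and Crp one of 0.03. With 3 week 32 libraries, calls were lost at an adjusted p of 0.0674 for Itih3 without library 1, and 0.0601 for Saa2 and 0.0717 for Itih3 without library 2. With only a pair of week 16 libraries, calls were lost at an adjusted p of 0.123 for Itih3 without library 1, 0.171 for Itih3 without library 2, and 0.0770 for Saa2, 0.0551 for Lcn2 and 0.103 for Itih3 without library 3. Saa1 and Hp were called whichever library was left out. Neutrophil markers summed to 3.98 to 7.24 CPM at week 32 and 2.55 to 4.27 CPM at week 16, with Ngp and Mpo at 0 in all 7 libraries.

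Hspa1a, Hspa1b, Hsph1, Hsp90aa1 and Creld2 rose among the chaperone genes. Of 23 members of the heat shock and endoplasmic reticulum chaperone list, all tested, 5 rose and none fell (21.7%, against 1.52% of all genes). The list median was 0.79 and 21 of 23 members had a change above 0, against 46.0% of all genes tested. Hspa1b (chromosome 17, 34956436 to 34959238, GRCm38), an inducible heat shock protein of the HSP70 family, had 43.6, 262, 109 and 67.7 CPM in week 32 livers, against 7.65, 16.3 and 6.49 CPM in week 16 livers (log2 change 3.29 ± 0.51 (SE), adjusted p = 0.0151). Its near copy Hspa1a had 20.3, 129.9, 56.6 and 25.0 CPM in week 32 livers, against 2.89, 8.53 and 2.91 CPM in week 16 livers (log2 change 3.24 ± 0.57 (SE), adjusted p = 0.0221), and how reads were split between them is uncertain. Week 32 library 2 was the highest in both and library 1 the lowest.

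Hsph1, a nucleotide exchange factor for HSP70, had 55.4, 123, 72.9 and 98.1 CPM in week 32 livers, against 20.2, 22.4 and 13.5 CPM in week 16 livers (log2 change 2.16 ± 0.26 (SE), adjusted p = 0.00473). Hsp90aa1, the inducible cytosolic HSP90, had 241, 381, 233 and 416 CPM in week 32 livers, against 151, 88.5 and 96.7 CPM in week 16 livers (log2 change 1.49 ± 0.24 (SE), adjusted p = 0.0178). Creld2, an endoplasmic reticulum stress-inducible protein, had 37.0, 63.9, 79.5 and 109 CPM in week 32 livers, against 25.4, 9.73 and 9.94 CPM in week 16 livers (log2 change 2.27 ± 0.38 (SE), adjusted p = 0.0193). The groups overlapped for none of them. Syvn1, the ubiquitin ligase of endoplasmic reticulum-associated degradation, is not on the list and had 63.1, 108, 107 and 111 CPM in week 32 livers, against 33.6, 30.4 and 25.8 CPM in week 16 livers (log2 change 1.66 ± 0.20 (SE), adjusted p = 0.00473). Not called were Hspa5 at 1.14 (adjusted p = 0.108), the main chaperone of the endoplasmic reticulum, Dnajb1 at 1.51 (adjusted p = 0.0608) and Hspb1 at 1.25 (adjusted p = 0.0786). Calr and Hspd1 had the negative values -0.43 and -0.13. When a week 16 library was dropped, the adjusted p became 0.0599 for Hspa1b and 0.0934 for Hspa1a without library 1, 0.0917 for Hsp90aa1 and 0.0917 for Creld2 without library 2, and 0.0770 for Hspa1b, 0.113 for Hspa1a, 0.0899 for Hsp90aa1 and 0.0980 for Creld2 without library 3. Hsph1 and Syvn1 were called whichever library was left out.

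The heat shock element was searched for as an exact match only (alternating GAA, TTC and GAA units with 2 bases between units, either strand). Elements of another form or outside the window were not looked for. The Hsph1 promoter is shown because it alone of the called chaperone genes with a window (4 of 5) held a match. The match lay just after the start (chr5:149636287-149636586, minus strand, RefSeq, GRCm38.p6, 5′ to 3′, element in capitals).
Hsph1: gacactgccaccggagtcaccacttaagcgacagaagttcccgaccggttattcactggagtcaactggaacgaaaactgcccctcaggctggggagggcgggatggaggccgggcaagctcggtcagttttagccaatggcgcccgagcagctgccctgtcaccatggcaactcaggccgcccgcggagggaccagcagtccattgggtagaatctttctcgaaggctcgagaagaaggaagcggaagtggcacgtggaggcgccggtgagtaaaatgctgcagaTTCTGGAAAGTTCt
Of all windows, 0.603% held this element. The window also held an E-box. None of the 11 called clock genes held the heat shock element.

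Stearoyl-CoA desaturases rose, and most of the lipogenic list was not called. Of 20 fatty acid synthesis members 19 were tested, and 3 rose and none fell (15.8%, against 1.52% of all genes), while the list median was -0.01. Scd1 (chromosome 19, 44394455 to 44407879, GRCm38), the main hepatic desaturase, had 20958, 16956, 24046 and 17036 CPM in week 32 livers, against 3639, 4891 and 4647 CPM in week 16 livers and was 4.48-fold higher at week 32 (log2 change 2.16 ± 0.26 (SE), adjusted p = 0.00473). Scd2 had 49.3, 42.8, 56.2 and 39.9 CPM in week 32 livers, against 16.2, 18.5 and 15.4 CPM in week 16 livers (log2 change 1.46 ± 0.14 (SE), adjusted p = 0.00329). Relatives outside the list also rose, Scd3 by 1.95 ± 0.18, adjusted p = 0.00318 and Scd4 by 1.80 ± 0.29, adjusted p = 0.0178 on the log2 scale. These are paralogs, so shared reads may enter more than 1 of them. Elovl5, a fatty acid elongase, had 743, 827, 902 and 726 CPM in week 32 livers, against 379, 268 and 492 CPM in week 16 livers (log2 change 1.11 ± 0.19 (SE), adjusted p = 0.0221).

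Fasn, the fatty acid synthase, had 1887, 1496, 3037 and 1197 CPM in week 32 livers, against 1453, 2094 and 1911 CPM in week 16 livers (log2 change -0.01, adjusted p = 0.994). Acly at 0.05, Acaca at -0.08 and Me1 at 0.05 were likewise not called. Srebf1, the lipogenic transcription factor, had 229.8, 82.3, 155 and 96.9 CPM in week 32 livers, against 274, 419 and 254 CPM in week 16 livers without overlap (log2 change -1.24, adjusted p = 0.0841). Elovl3, a clock- and androgen-regulated elongase of mouse liver, had 297, 229.8, 368 and 200.1 CPM in week 32 livers, against 88.9, 42.3 and 61.7 CPM in week 16 livers (log2 change 2.11 ± 0.26 (SE), adjusted p = 0.00473).

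Genes of fat and glucose handling moved singly. Pck1, the cytosolic enzyme that commits carbon to gluconeogenesis, had 1184, 1487, 1054 and 821 CPM in week 32 livers, against 393, 305 and 364 CPM in week 16 livers and was 3.15-fold higher at week 32 (log2 change 1.66 ± 0.20 (SE), adjusted p = 0.00473). It was the 1 called member of 19 of the glucose production and fasting list (5.26%, against 1.52% of all genes; list median 0.33). G6pc had a log2 change of 0.67 (adjusted p = 0.162) and Igfbp1 one of 1.78 (adjusted p = 0.195). Angptl4, a secreted lipoprotein lipase inhibitor, had 59.8, 85.9, 73.9 and 68.2 CPM in week 32 livers, against 24.2, 9.54 and 19.3 CPM in week 16 livers (log2 change 2.08 ± 0.26 (SE), adjusted p = 0.00564). Plin5, a perilipin that tethers lipid droplets to mitochondria, rose as the 1 called member of 19 tested on the lipid droplet list (5.26%, against 1.52% of all genes), with 31.5, 26.9, 23.7 and 18.3 CPM in week 32 livers, against 12.9, 12.8 and 13.5 CPM in week 16 livers (log2 change 0.89 ± 0.17 (SE), adjusted p = 0.0309). Ppara, the fatty acid oxidation receptor, fell as the 1 called member of 24 on its list (4.17%, against 1.52% of all genes), with 86.3, 73.4, 68.9 and 85.5 CPM in week 32 livers, against 120.3, 116 and 118 CPM in week 16 livers (log2 change -0.59 ± 0.12 (SE), adjusted p = 0.0356).

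The targets of Ppara on that list were not called. Cyp4a14 at -3.15 (adjusted p = 0.191) and Cyp4a10 at -2.49 (adjusted p = 0.293) had wide spreads, with week 32 library 3 the lowest in both. When a week 32 library was dropped, the adjusted p became 0.0557 for Elovl5, 0.0795 for Plin5 and 0.0830 for Ppara without library 2, and 0.0568 for Ppara without library 3. Dropping a week 16 library gave an adjusted p of 0.0706 for Elovl5, 0.111 for Plin5 and 0.128 for Ppara without library 1, 0.0865 for Scd4, 0.0917 for Elovl5, 0.144 for Plin5 and 0.147 for Ppara without library 2, and 0.0835 for Scd4, 0.118 for Plin5 and 0.146 for Ppara without library 3. Scd1, Scd2, Elovl3, Pck1 and Angptl4 were called whichever library was left out. In the joint fit of both diets the control changes of Scd1, Elovl3, Pck1, Scd4, Elovl5, Plin5 and Ppara were not called.

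Among the other genes with the largest rises, Cdkn1a (chromosome 17, 29090976 to 29100727, GRCm38), the cyclin-dependent kinase inhibitor p21, had 9.68, 15.6, 8.83 and 7.46 CPM in week 32 livers, against 0.394, 0.161 and 1.58 CPM in week 16 livers (log2 change 3.29 ± 0.37 (SE), adjusted p = 0.00473). It was the 1 called of 13 tested members of the senescence and DNA damage list (7.69%, against 1.52% of all genes). In that list 6 members had a change above 0 and 7 below, with a median of -0.02. The p53 targets Mdm2 and Ccng1 on it had values of -0.12 and 0.12. Dio1, the deiodinase that activates thyroid hormone, had 31.0, 25.0, 38.6 and 25.1 CPM in week 32 livers, against 8.18, 2.69 and 3.46 CPM in week 16 livers (log2 change 2.64 ± 0.30 (SE), adjusted p = 0.00473). Slc25a30, a mitochondrial carrier, had 44.8, 129.9, 23.3 and 154 CPM in week 32 livers, against 10.9, 7.09 and 11.6 CPM in week 16 livers (log2 change 2.75 ± 0.54 (SE), adjusted p = 0.0356), with a wide spread at week 32. Mfsd2a, a lysophosphatidylcholine transporter, had 64.9, 68.5, 22.7 and 46.2 CPM in week 32 livers, against 4.62, 7.62 and 14.5 CPM in week 16 livers (log2 change 2.46 ± 0.40 (SE), adjusted p = 0.0184). Pitx3, a homeobox factor, had 12.0, 6.85, 7.79 and 2.36 CPM in week 32 livers, against 1.17, 0.876 and 0.673 CPM in week 16 livers (log2 change 2.30 ± 0.41 (SE), adjusted p = 0.0236). Alas1, the first enzyme of haem synthesis, had 435, 496, 147 and 425 CPM in week 32 livers, against 85.0, 68.1 and 105 CPM in week 16 livers (log2 change 2.00 ± 0.36 (SE), adjusted p = 0.0239). Nedd4l, a ubiquitin ligase, was chosen after its values were seen because it had the smallest p of all genes, with 96.8, 83.0, 98.8 and 90.9 CPM in week 32 livers, against 34.7, 29.3 and 32.0 CPM in week 16 livers (log2 change 1.51 ± 0.11 (SE), adjusted p = 0.000837).

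Of the other large falls, Clec2h, a C-type lectin, had 0.614, 0.952, 2.62 and 1.91 CPM in week 32 livers, against 6.08, 5.18 and 14.2 CPM in week 16 livers (log2 change -2.13 ± 0.40 (SE), adjusted p = 0.0293). Wipf3, an actin regulator, had 1.82, 0.862, 1.06 and 0.969 CPM in week 32 livers, against 4.29, 5.43 and 7.43 CPM in week 16 livers (log2 change -1.89 ± 0.25 (SE), adjusted p = 0.00715), and Upp2, a uridine phosphorylase, had 28.3, 16.7, 54.5 and 53.2 CPM in week 32 livers, against 123, 113 and 93.9 CPM in week 16 livers (log2 change -1.66 ± 0.35 (SE), adjusted p = 0.0461). Prss8, the membrane protease prostasin, had 6.24, 6.19, 8.00 and 4.83 CPM in week 32 livers, against 17.8, 18.9 and 15.8 CPM in week 16 livers (log2 change -1.42 ± 0.17 (SE), adjusted p = 0.00473). The groups were apart for each of these genes. Dropping a week 32 library gave an adjusted p of 0.0727 for Upp2 without library 1, 0.0795 for Slc25a30, 0.0623 for Pitx3, 0.0615 for Alas1 and 0.0746 for Clec2h without library 2, and 0.0525 for Slc25a30 without library 4. A fit with a pair of week 16 libraries gave an adjusted p of 0.105 for Slc25a30, 0.0642 for Mfsd2a, 0.0642 for Pitx3, 0.0881 for Alas1, 0.0706 for Clec2h and 0.144 for Upp2 without library 1, 0.163 for Slc25a30, 0.0865 for Mfsd2a, 0.0988 for Pitx3, 0.123 for Alas1, 0.0781 for Clec2h and 0.169 for Upp2 without library 2, and 0.115 for Slc25a30, 0.113 for Pitx3, 0.0782 for Alas1, 0.128 for Clec2h, 0.0514 for Wipf3 and 0.128 for Upp2 without library 3. Cdkn1a, Dio1, Nedd4l and Prss8 were called whichever library was left out. Upp2 was not called by edgeR's quasi-likelihood test.

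**Figure D2:**
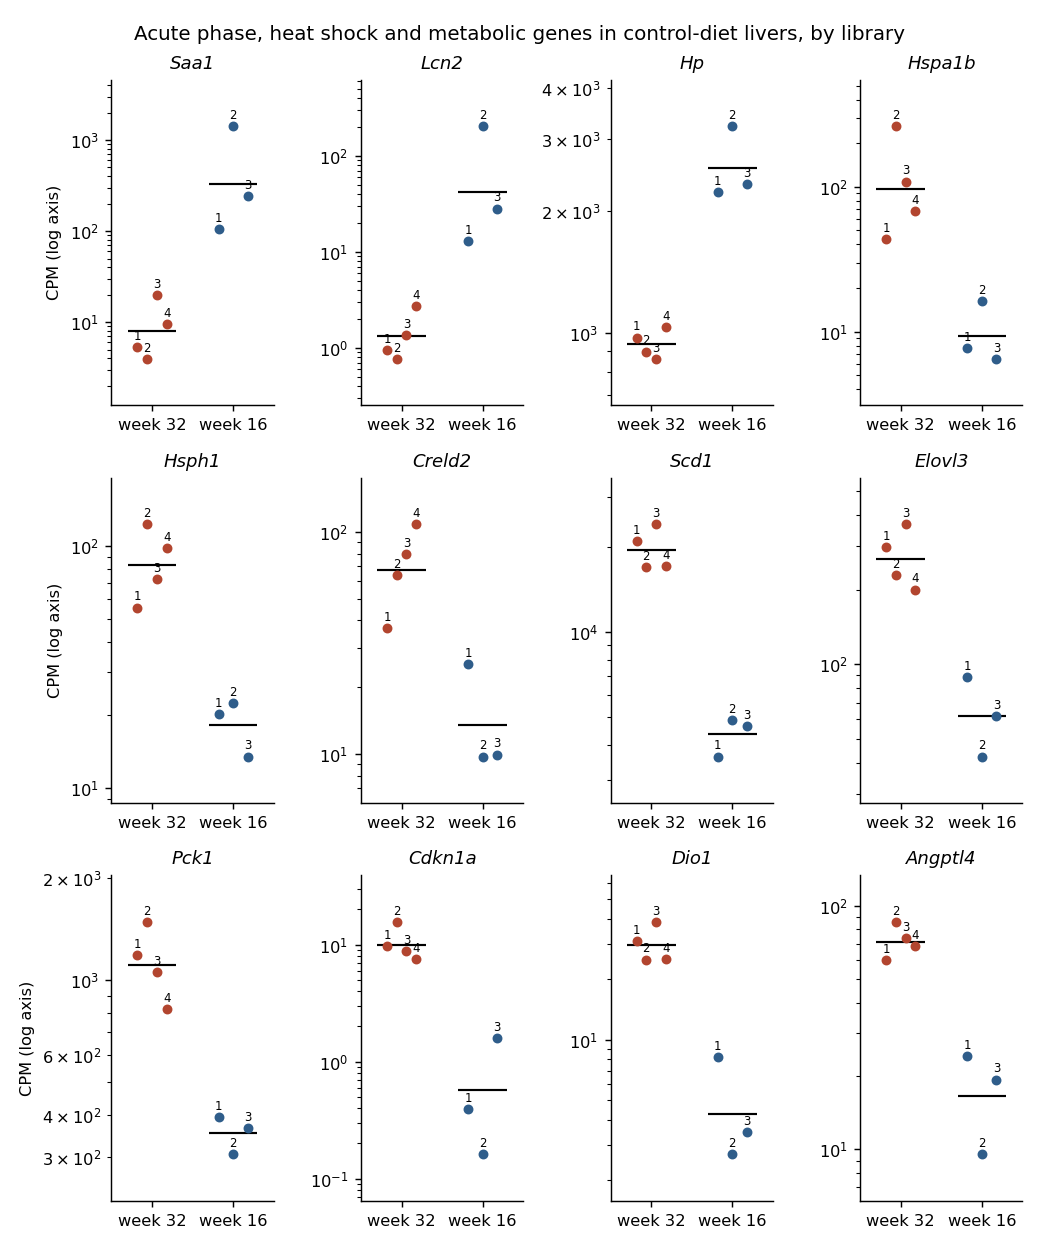
Level of 12 genes in each control-diet liver library, in CPM on a log axis, with week 32 libraries (red, numbered 1 to 4) left of week 16 libraries (blue, numbered 1 to 3) and bars at the mean on the log2(CPM + 0.5) scale. Saa1, Lcn2 and Hp are lower at week 32 and the other 9 genes higher, with no overlap in any panel.

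Some liver genes are typed by sex in the mouse, where male and female patterns follow growth hormone secretion. Of 19 tested male-typed members 2 rose and none fell (10.5%, against 1.52% of all genes; list median 0.33). They were Elovl3, given above, and Mup20, a major urinary protein, which had 6886, 12693, 8497 and 7908 CPM in week 32 livers, against 3142, 2864 and 2367 CPM in week 16 livers (log2 change 1.66 ± 0.25 (SE), adjusted p = 0.0142). Major urinary protein genes are near copies of each other, so the split of reads among them is uncertain. Mup7, at 3963, 3512, 25611 and 8479 CPM in week 32 livers, against 2923, 1587 and 1296 CPM in week 16 livers, was not called (adjusted p = 0.126), with week 32 library 3 far above the rest. Of 20 female-typed members 9 passed the filter, and 1 of these fell (11.1%, against 1.52% of all genes), Cyp2a4, a steroid hydroxylase, with 2.04, 1.25, 2.95 and 2.24 CPM in week 32 livers, against 6.67, 8.69 and 5.60 CPM in week 16 livers (log2 change -1.53 ± 0.25 (SE), adjusted p = 0.0173). Its near copy Cyp2a5 was not called (-1.75, adjusted p = 0.0809). None of 15 tested members of the growth hormone list was called. Leaving out a week 16 library raised the adjusted p to 0.0601 for Cyp2a4 without library 1, 0.0785 for Mup20 and 0.0917 for Cyp2a4 without library 2, and 0.0835 for Mup20 and 0.0527 for Cyp2a4 without library 3. Mup20 was not called with quantile normalization.

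Pericentral hepatocyte genes, which depend on Wnt signals near the central vein, had changes below 0 in all 14 tested members (list median -0.54). Of all genes tested, 46.0% had a change above 0. Other lists were as one-sided: sinusoidal endothelial markers were below 0 in all 14 tested and ribosomal protein genes in 23 of 24. Mitochondrial encoded messenger RNA was above 0 in all 13. Of the pericentral members 1 was called (7.14%, against 1.52% of all genes). That was Axin2, a direct Wnt target, with 4.35, 3.12, 3.84 and 2.55 CPM in week 32 livers, against 7.07, 11.4 and 6.66 CPM in week 16 livers (log2 change -1.15 ± 0.23 (SE), adjusted p = 0.0369). Glul, glutamine synthetase of the innermost layer, had 457, 392, 704 and 549.7 CPM in week 32 livers, against 767, 733 and 738 CPM in week 16 livers (log2 change -0.54, adjusted p = 0.186), and Cyp2e1 had a change of -0.83 (adjusted p = 0.196). Of 16 periportal members only Pck1 was called (6.25%, against 1.52% of all genes), and the list median was 0.31. None of 19 tested P450 enzymes and xenobiotic receptors was called (list median -0.50); the receptor gene Nr1i3 had 20.7, 9.19, 12.0 and 10.3 CPM in week 32 livers, against 26.5, 29.7 and 22.6 CPM in week 16 livers (adjusted p = 0.0610). A fit with 3 week 32 libraries gave an adjusted p of 0.0843 for Axin2 without library 2, and 0.0611 for Axin2 without library 4. With only a pair of week 16 libraries, calls were lost at an adjusted p of 0.0909 for Axin2 without library 1, 0.169 for Axin2 without library 2, and 0.0899 for Axin2 without library 3.

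Among markers of other liver cells, Id3 and Ighm were called. Kupffer cell markers summed to 339 to 459 CPM at week 32 and 344 to 490.2 CPM at week 16. The 1 called of 13 tested (7.69%, against 1.52% of all genes) was Id3, a transcriptional inhibitor that many cell types express, with 48.0, 35.0, 25.5 and 32.1 CPM in week 32 livers, against 11.4, 16.8 and 15.0 CPM in week 16 livers (log2 change 1.24 ± 0.21 (SE), adjusted p = 0.0193). Clec4f and Vsig4, which define these cells, had changes of 0.07 and -0.01. Of 8 tested B and plasma cell members 1 was called (12.5%, against 1.52% of all genes), Ighm, the heavy chain of IgM, with 8.21, 7.79, 8.34 and 10.8 CPM in week 32 livers, against 4.93, 3.27 and 5.39 CPM in week 16 livers (log2 change 0.90 ± 0.19 (SE), adjusted p = 0.0499). Igha at 1.46 (adjusted p = 0.0653) and Jchain at 1.12 (adjusted p = 0.0608) were not called, and 13 of the 21 members were below the filter. In bulk tissue more cells of a type and more RNA per cell cannot be told apart. Leaving out a week 32 library raised the adjusted p to 0.0659 for Ighm without library 1, 0.0501 for Id3 and 0.0813 for Ighm without library 2, 0.0642 for Ighm without library 3, and 0.0834 for Ighm without library 4. When a week 16 library was dropped, the adjusted p became 0.0706 for Id3 and 0.115 for Ighm without library 1, 0.0542 for Id3 and 0.196 for Ighm without library 2, and 0.0770 for Id3 and 0.103 for Ighm without library 3. Neither Id3 nor Ighm was called with each library set to a total of 1000000.

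No member was called in the lists of recruited macrophages (7 tested), T and NK cells (1), neutrophils (1), stellate cells (14), sinusoidal endothelium (14), cholangiocytes (5), extracellular matrix (21) or interferon response (28). The same held for MHC class I (15) and class II (8), adipocytes (5), erythroid cells (5), and pancreas and gut (2). Of the pancreas and gut members, 10 were at 0 in all 7 libraries. Hepatocyte-defining genes summed to 113934 to 129177 CPM at week 32 and 93109 to 109847 CPM at week 16 and none of the 16 was called. Erythroid sums were 491 to 572 CPM at week 32 and 395 to 465 CPM at week 16, and their part in other results was not tested. Cholesterol synthesis (25 tested), bile acid genes (18), NRF2 targets (18) and ATF4 targets (16) had no called member. Nor had immediate early genes (17), the cell cycle (12), ribosomal proteins (24), nuclear (23) or mitochondrial (13) respiratory chain genes.

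**Figure D3:**
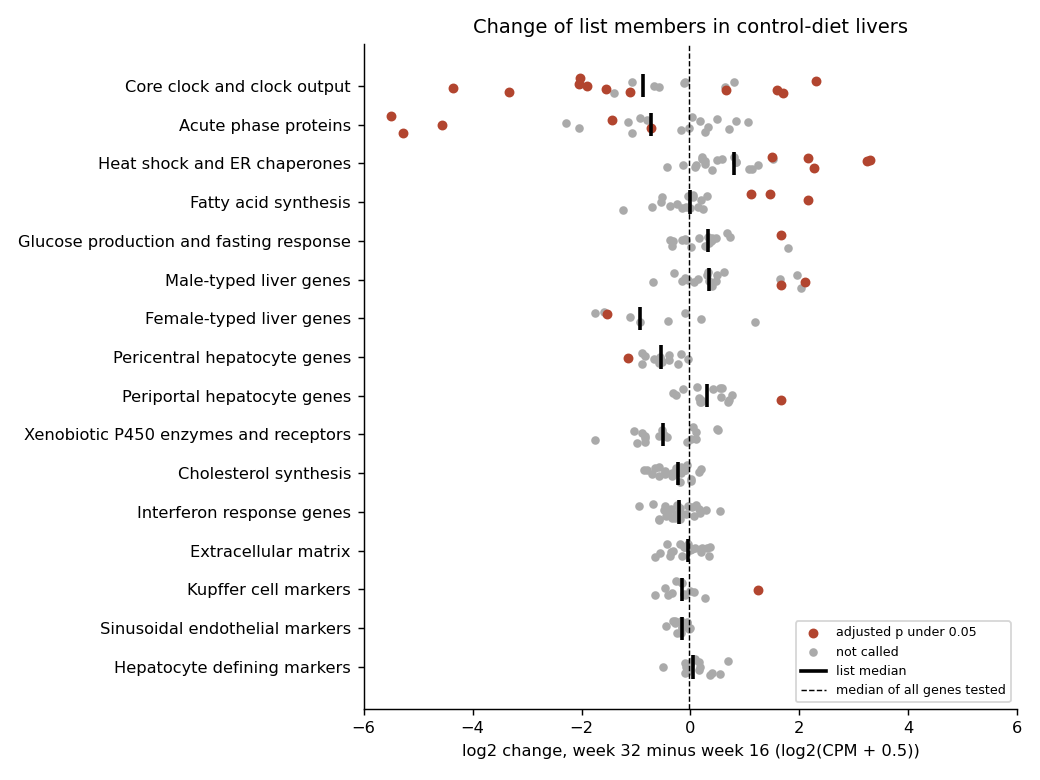
Log2 change, week 32 minus week 16, of each tested member of 16 gene lists in control-diet livers. Red points are called members, grey points are not called, thick bars are list medians and the dashed line is the median of all genes tested (-0.03). Clock members lie on both sides, acute phase members reach -5.50, and 21 of 23 chaperone members lie above 0.

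Control livers of the other durations, each from a table scaled on its own by the authors, were set beside the 2 groups on the common scale. The genes given were called between these groups, so their ranges carry no test of which group stood apart. Across the 8 libraries of weeks 1 to 12, Dbp ranged from 0.235 to 7.79 CPM, against at least 26.8 CPM in every week 16 library. At week 48 Dbp was 3.69 to 14.7 CPM. In weeks 1 to 12 Arntl was 15.2 to 24.9 CPM and Per3 1.88 to 11.3 CPM, both apart from week 16. At week 48 Arntl was 6.49 to 15.0 CPM and Per3 8.31 to 37.3 CPM, and both ranges overlapped week 16. Pck1 was 421 to 1186 CPM in weeks 1 to 12, above week 16. Its week 48 range of 80.7 to 360 CPM reached below week 16. Scd1 ranged from 10616 to 30959 CPM in weeks 1 to 12 and Dio1 from 14.6 to 43.6 CPM, both above all week 16 libraries. At week 48 Dio1 was 13.3 to 20.3 CPM, while Scd1 was 2271 to 18526 CPM, a range that spans the week 16 libraries. Nedd4l was 45.2 to 87.5 CPM in weeks 1 to 12 and 56.0 to 68.5 CPM at week 48, above week 16 as well. Hspa1b, at 43.6 to 262 CPM in week 32 livers, ranged from 9.58 to 67.4 CPM in weeks 1 to 12 and from 6.94 to 12.3 CPM at week 48. Saa1 varied from 6.69 to 468 CPM in weeks 1 to 12 and from 25.3 to 549 CPM at week 48, and Cdkn1a from 1.83 to 25.1 CPM in weeks 1 to 12 and from 0.578 to 12.0 CPM at week 48.

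Of the 112 genes that rose, the mean of weeks 1 to 12 lay nearer to week 32 than to week 16 for 66, and all 8 libraries lay above every week 16 library for 60. Of the 94 that fell the counts were 70 and 64. At week 48, with 3 libraries, the mean lay nearer to week 32 for 26 of 112 and 44 of 94. These counts describe the called genes, which were chosen on the week 16 values themselves, so they carry no test.

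**Figure D4:**
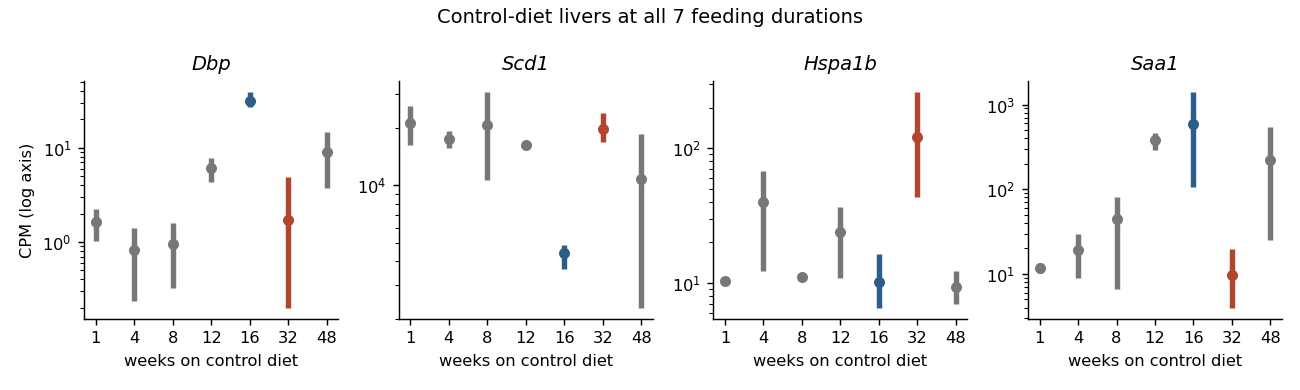
Level of 4 genes in control-diet livers at 1, 4, 8, 12, 16, 32 and 48 weeks on the diet, in CPM on a log axis, as the mean (point) and the lowest to highest library (line). Week 16 (blue) stands above the other durations for Dbp and below weeks 1 to 12 and 32 for Scd1, while week 32 (red) has the highest mean for Hspa1b and the lowest for Saa1.

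In LIDPAD livers, 247 of 14932 genes (1.65%) were called between week 32 and week 16, 80 that rose and 167 that fell, in a joint fit of the 4 groups. The same joint fit called 163 genes between week 32 and week 16 control livers (1.09%), of which 113 were among the 206 above. Called in both diets by the joint fit were 22 genes, 13.5% of its control calls and 8.91% of its LIDPAD calls. The direction was shared by 21 of them (10 rose and 11 fell), and 11 of the 22 were clock members. Dbp changed by -3.61 ± 0.54 in LIDPAD livers (SE, adjusted p = 0.00881), against -4.35 in control livers, and Arntl by 2.22 ± 0.27 (adjusted p = 0.00253), against 1.70. Bhlhe41 was the clock member called in control livers and not in LIDPAD livers (-0.70 ± 0.29, adjusted p = 0.173). Nedd4l and Scd2 also rose in LIDPAD livers, by 1.01 ± 0.12 (adjusted p = 0.00253) and 1.36 ± 0.31 (adjusted p = 0.0419). Ppara fell by 1.09 (adjusted p = 0.0462) there.

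Other leading genes had LIDPAD changes that were not called: Scd1 had -0.10 ± 0.51, Hspa1b -1.09 ± 0.84, Lcn2 0.04 ± 0.74, Saa1 -2.04 ± 0.73 and Cdkn1a 0.86 ± 0.31. In the same joint fit the control change was not called for Scd1, at 2.16 ± 0.53 (adjusted p = 0.0670), or Hspa1b, at 3.29 ± 0.88 (adjusted p = 0.0883), and it was called for Lcn2, Saa1 and Cdkn1a. The difference between the diets' changes was not called for any of these 5 (smallest adjusted p = 0.0526, for Cdkn1a). The chaperone list had a median of -0.43 in LIDPAD livers, against 0.79 in control livers. Other lists had LIDPAD medians as low, such as -0.52 for fatty acid synthesis and -0.46 for glucose production. Some were above 0, such as 0.45 for periportal genes. The LIDPAD median of all genes is not given here, and the difference between list medians was not tested.

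The change differed between the diets for 16 of 14932 genes (0.107%, joint limma fit), 11 with a higher and 5 with a lower value in control livers. At an unadjusted p under 0.05 there were 2261. Mfsd2a had 28.8, 23.2, 20.3, 32.6 and 44.1 CPM at week 32, against 74.1, 80.7 and 87.8 CPM at week 16 in LIDPAD livers, where it fell by 1.47 ± 0.36 (adjusted p = 0.0488), while it rose in control livers. The difference, control change minus LIDPAD change, was 3.93 ± 0.52 (adjusted p = 0.0169). For Alas1 it was 3.47 ± 0.55 (adjusted p = 0.0290), for Angptl4 2.80 ± 0.41 (adjusted p = 0.0197), for Creld2 2.68 ± 0.48 (adjusted p = 0.0454) and for Syvn1 2.00 ± 0.36 (adjusted p = 0.0496). The negative differences among named genes were Prss8 at -2.05 ± 0.36 (adjusted p = 0.0454), Fzd6, a Wnt receptor, at -1.69 ± 0.31 (adjusted p = 0.0496), and Zfp608, Snx30 and Malt1, at -1.35 ± 0.25, -1.11 ± 0.19 and -0.99 ± 0.18 (adjusted p = 0.0496, 0.0454 and 0.0454). Serpina4-ps1, a pseudogene related to serpins and outside the rule for named genes, was chosen after its values were seen because its difference was the largest of those called, at 4.31 ± 0.72 (adjusted p = 0.0444). It had 139, 195, 86.3 and 366 CPM in week 32 livers, against 23.4, 10.1 and 20.2 CPM in week 16 livers on the control diet (log2 change 3.30 ± 0.42 (SE), adjusted p = 0.00586), and its LIDPAD change of -1.0 ± 0.50 was not called (adjusted p = 0.241). As a pseudogene it may share reads with related genes. In control livers Fzd6 had 2.03, 1.79, 1.24 and 1.87 CPM in week 32 livers, against 4.01, 4.67 and 4.77 CPM in week 16 livers (log2 change -1.17 ± 0.20 (SE), adjusted p = 0.0201). Zfp608 changed by -1.09 ± 0.19, adjusted p = 0.0213 and Snx30, a sorting nexin, by -1.05 ± 0.17, adjusted p = 0.0162, while Malt1 was not called there (-0.36, adjusted p = 0.246). Dropping a week 16 library gave an adjusted p of 0.0599 for Fzd6, 0.0645 for Zfp608 and 0.0642 for Snx30 without library 1, 0.101 for Fzd6, 0.0988 for Zfp608 and 0.0865 for Snx30 without library 2, and 0.108 for Fzd6, 0.117 for Zfp608 and 0.0680 for Snx30 without library 3. None of the named differences kept an adjusted p under 0.05 without week 32 control library 2, week 16 control library 2 or week 16 LIDPAD library 3, and DESeq2 on recovered reads called 293 genes and edgeR 6.

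**Figure D5:**
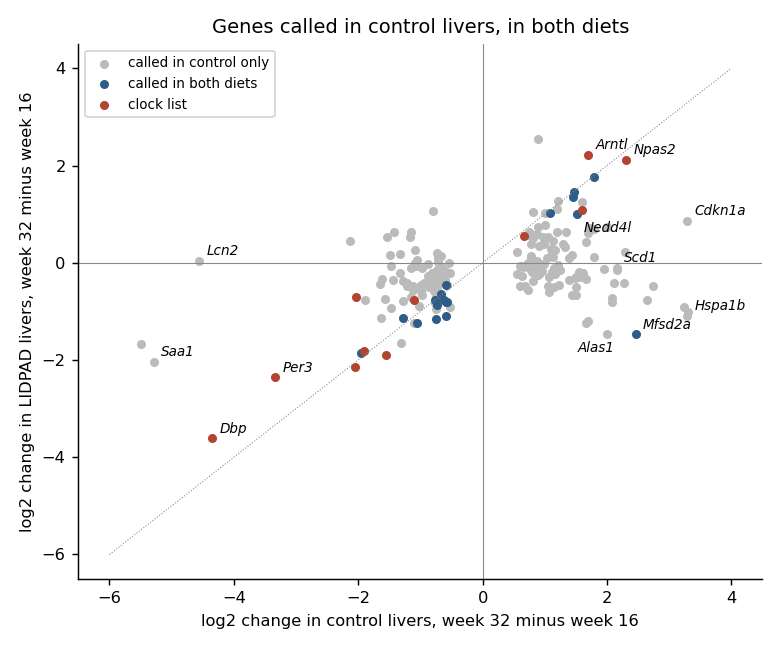
Log2 change, week 32 minus week 16, in control livers (x axis) against LIDPAD livers (y axis) for genes called in the fit of control livers alone and tested in both. Clock members (red) changed in the same direction in both diets. Of them, Bhlhe41 (-2.04 in control, -0.70 in LIDPAD livers) and Per3 (-3.34 and -2.35) lie farthest from the dotted line of equal change. Other genes called in both diets are blue, and other genes called in control livers alone are grey. Grey points were chosen as not called in LIDPAD livers, so their place nearer to 0 on the y axis carries no test.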

How the data were processed

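Mouse liver RNA was sequenced for both diets, per the labels' protocols. Each duration has 1 table of 54532 Ensembl genes (54409 with a symbol). Its deposited values are a normalized signal in FPM: the authors divided each column's gene counts by a size factor and scaled them to 1000000. The submitters' processing notes list HISAT2, featureCounts, DESeq2 and GRCm38 with neither role nor version. The strand setting is not given in the sources used here, so reads of overlapping genes cannot be told apart. At weeks 16 and 32 every value (100%) came out as whole reads within 0.02 reads. Genes with exactly 2 reads outnumbered those with exactly 1 read by 5.37 to 1, a sign of paired counting, and parts of 1 library then differ with a chi-square near 2 per gene.

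Means of 4 columns were brought to a common scale over all 38 libraries with edgeR 4.0.16 (TMM) and called CPM. The fit was limma 3.58.1 (R 4.3.3) with a mean-variance trend on log2(CPM + 0.5), two-sided, for genes with at least 1 CPM in at least 3 libraries. Fold changes of low genes are understated on this scale. P-values were adjusted over all genes tested (Benjamini-Hochberg), and under 0.05 a gene was called. edgeR's quasi-likelihood test on recovered reads called 223 genes. LIDPAD values and the difference between diets came from a joint fit of 4 groups. The fit was also run on counts simulated from the control libraries. That simulation held no effect of table or hour of collection, so it does not bear on either. Tables and plots used Python 3.11.15, pandas 2.3.3, scipy 1.17.1 and matplotlib 3.10.9. Of the gene IDs, 54495 had a position in GENCODE vM21, and promoters are from RefSeq. The replicate numbers do not pair the samples, as the labels give no shared source.

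The rule for named genes took the 12 largest rises and falls among called genes with groups apart (predicted, clone-named, Riken and pseudogenes left out), from each list its called members and the 2 with the lowest p, the 5 largest differences between diets in each direction, and sex check genes. Those left unprinted had no call. The comparison, its members, the 40 gene lists and the tests were chosen with earlier results of these data known.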

Additional observations from a re-analysis of the deposited data

Results flagged for a closer look

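Syvn1 at week 32 had 1 library far from the others: 63.1 CPM in library 1, against 107 to 111 CPM in libraries 2 to 4. It was the 1 of 50 genes looked at in which a week 32 library lay so far out, and chance gives about 5% of groups. The 4 loci Lars2, Gm15564, CT010467.1 and Mir6236 took 3.60% of reads in week 32 library 3, far from the other week 32 libraries (0.0136 to 0.0771%).

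The week 32 against week 16 change differed between control and LIDPAD livers, by the test of that difference, for the following genes (control change minus LIDPAD change, log2). Positive differences were 4.31 for Serpina4-ps1, 3.93 for Mfsd2a, 3.47 for Alas1, 2.80 for Angptl4, 2.68 for Creld2 and 2.00 for Syvn1. Negative differences were -2.05 for Prss8, -1.69 for Fzd6, -1.35 for Zfp608, -1.11 for Snx30 and -0.99 for Malt1. The causes were not tested.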

How the results depend on the processing

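The count of genes called between week 32 and week 16 control livers (206; 112 higher, 94 lower) was 506 (102 higher, 404 lower) with the values as deposited, 415 (66 higher, 349 lower) with each library set to a total of 1000000, 136 with no filter, 78 with no trend, 641 with DESeq2 and 111 with a replicate block. Leaving out 1 library gave 40 to 256 genes, with 98 without week 32 library 2 and 82, 42 and 40 without week 16 libraries 1, 2 and 3. Genes shared with the 206 then numbered 91, 71, 41 and 37. The other settings gave 163 to 217 genes, and edgeR 223. The labels give no shared source for libraries of the same number. Same-numbered libraries correlated at -0.10, 0.08 and 0.01 in their deviations from the group means, and differently numbered ones at -0.10 to 0.11. Deviations within a group depend on each other, so these values cannot decide on pairing. Of the 111 genes of the replicate block, 84 were among the 206.

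The count of genes whose change differed between the diets (16) was 3 with each library set to a total of 1000000, 9 with median-of-ratios size factors, 8 with quantile normalization, 3 with no filter, 10 with a filter of 5 CPM, 8 with no trend, 6 with edgeR and 293 with DESeq2. It was 734 with only the libraries whose reads divide among their columns as at week 16 and 142 with that division as a term. Leaving out 1 library gave 0 to 44, with 9 and 11 without week 32 LIDPAD libraries 4 and 5. The limma counts of 0 were without week 32 control library 2, week 16 control library 2 and week 16 LIDPAD library 3, with 2013, 1957 and 1772 genes at an unadjusted p under 0.05. No paired analysis was possible because the diets' libraries share only numbers. Causes were not tested.

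Of the 49 calls among named genes, 15 survived the loss of any library, 48 were called by edgeR and 49 by DESeq2. With no trend 26 were called, with a replicate block 29, in the joint fit 34 and with no filter 36. Those not called in the joint fit were Hspa1a, Hspa1b, Scd1, Elovl3, Elovl5, Plin5, Ppara, Pck1, Itih3, Clec2h, Upp2, Mup20, Cyp2a4, Axin2 and Ighm. No called change reversed under any setting. The difference in log2 Arntl minus log2 Dbp lay between 5.50 and 6.91 over its alternatives. Week 32 library 3, at 12.4 M reads, limits the precision of low genes.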

Other observations

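Genes outside the lists that moved with them were picked after their values were seen and carry no weight as a test of a group. Chaperones and co-chaperones among the called genes that rose at week 32 were Dnajb4 (log2 change 0.92 ± 0.14 (SE), adjusted p = 0.0124), Hspa4l (log2 change 0.94 ± 0.15 (SE), adjusted p = 0.0178), Chordc1 (log2 change 1.07 ± 0.17 (SE), adjusted p = 0.0162), Bag3 (log2 change 1.14 ± 0.23 (SE), adjusted p = 0.0412) and Stip1 (log2 change 0.73 ± 0.16 (SE), adjusted p = 0.0489). Dnajb4 had 36.2, 50.9, 42.2 and 39.9 CPM in week 32 livers, against 21.4, 24.0 and 20.5 CPM in week 16 livers.

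Flcn, the gene of folliculin, which with the FNIP proteins acts on RagC and AMPK signalling, fell at week 32 with 10.7, 13.9, 16.4 and 13.5 CPM in week 32 livers, against 31.8, 38.4 and 33.7 CPM in week 16 livers (log2 change -1.32 ± 0.15 (SE), adjusted p = 0.00473). Its partners Fnip2 (log2 change -1.22 ± 0.22 (SE), adjusted p = 0.0249) and Fnip1 (log2 change -0.61 ± 0.13 (SE), adjusted p = 0.0441) fell as well. Fnip2 had 47.4, 27.7, 54.6 and 32.9 CPM in week 32 livers, against 76.0, 97.6 and 106 CPM in week 16 livers. Tubulin genes that fell were Tubb4b (log2 change -0.75 ± 0.14 (SE), adjusted p = 0.0249), Tubb5 (log2 change -0.66 ± 0.13 (SE), adjusted p = 0.0352) and Tuba1c (log2 change -0.63 ± 0.13 (SE), adjusted p = 0.0461). Elovl2, an elongase of polyunsaturated fatty acids, rose (log2 change 0.93 ± 0.19 (SE), adjusted p = 0.0371), with 502, 836, 543 and 617 CPM in week 32 livers, against 338, 269.6 and 362 CPM in week 16 livers. Leaving out a week 32 library raised the adjusted p to 0.0692 for Stip1, 0.0727 for Fnip1, 0.0609 for Tubb5 and 0.0674 for Tuba1c without library 1, 0.0501 for Bag3, 0.104 for Stip1, 0.0501 for Fnip2, 0.0645 for Fnip1, 0.0507 for Tubb4b, 0.0854 for Tuba1c and 0.0557 for Elovl2 without library 2, 0.0668 for Bag3, 0.0707 for Stip1, 0.0591 for Fnip1, 0.0502 for Tubb5 and 0.0582 for Tuba1c without library 3, and 0.0652 for Stip1, 0.0560 for Tubb5, 0.0729 for Tuba1c and 0.0637 for Elovl2 without library 4. Leaving out a week 16 library raised the adjusted p to 0.137 for Bag3, 0.0523 for Fnip2, 0.137 for Fnip1, 0.0950 for Tubb4b, 0.137 for Tubb5, 0.155 for Tuba1c and 0.109 for Elovl2 without library 1, 0.0917 for Hspa4l, 0.0865 for Chordc1, 0.108 for Bag3, 0.204 for Stip1, 0.121 for Fnip2, 0.158 for Fnip1, 0.0865 for Tubb4b, 0.121 for Tubb5 and 0.183 for Elovl2 without library 2, and 0.0739 for Dnajb4, 0.0835 for Hspa4l, 0.0835 for Chordc1, 0.169 for Bag3, 0.196 for Stip1, 0.127 for Fnip2, 0.175 for Fnip1, 0.0792 for Tubb4b, 0.118 for Tubb5, 0.197 for Tuba1c and 0.103 for Elovl2 without library 3.

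Gadd45g, a growth arrest gene of the immediate early list, had 6.86, 6.79, 51.3 and 16.8 CPM in week 32 livers, against 0.888, 0.696 and 3.53 CPM in week 16 livers (log2 change 2.97, adjusted p = 0.0516), with week 32 library 3 the highest. Orm2 had 4.39, 4.41, 7.39 and 6.68 CPM in week 32 livers, against 11.1, 95.2 and 22.8 CPM in week 16 livers, and Cish, a target of growth hormone signalling, had 9.39, 5.89, 13.4 and 16.3 CPM in week 32 livers, against 1.60, 1.77 and 6.40 CPM in week 16 livers (adjusted p = 0.0698).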
